A study of Homo sapiens with 4 samples.

Results

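The ETS transcription factors examined here were 10 genes chosen by name: ETV1, ETV4, ETV5, ERG, ETS1, ETS2, ELF3, ELK3, GABPA and FLI1. The deposited table of DU145 cells held a row for 9 of them, among 19871 rows used, and FLI1 was not analysed here. DU145 is an established line of prostate cancer cells. Its transcriptome had been measured by RNA-seq in 2 shTAZ libraries, from cells with TAZ knocked down, and in 2 pLKO libraries, from control cells with the hairpin vector. All cells were grown with 10% fetal bovine serum, and 2 different hairpins against TAZ served, though which library has which is not labelled. Separate cultures are not mentioned, so each p-value rests on a spread among libraries that could be technical and that in shTAZ cells also holds any difference between hairpins.

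ETS factors share a winged helix DNA-binding domain that reads the letters GGAA. In prostate cancer ERG, ETV1, ETV4 and ETV5 are known as genes that chromosome rearrangements place behind androgen-driven promoters. TAZ, encoded by WWTR1, does not bind DNA itself but acts through TEAD factors, whose motif GGAATG holds the same core letters, and ETS factors have been described as activators of WWTR1 in prostate cancer cells. The comparison here runs the other way and asks whether ETS factor RNA differed once TAZ was knocked down.

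The table gave normalized read counts, from which 11687727 to 14814918 reads per library were recovered. WWTR1 had 839 and 719 normalized counts in shTAZ 1 and 2, against 2508 and 3626 in pLKO 1 and 2, and fell (log2 fold change -1.96 ± 0.20 SE, limma adjusted p = 0.0086). Of 6 epithelial markers 5 had a row, with a summed count of 22380 to 32901 in shTAZ cells and 35511 to 50145 in pLKO cells. KRT8, the most abundant of them, had 14618 and 8485 counts in shTAZ 1 and 2, against 18494 and 24944 in pLKO 1 and 2. KRT18 had 8369 and 5318 in shTAZ, against 9412 and 13485 in pLKO, so both keratins lay below each control. KRT19 overlapped, with 6909 and 6162 in shTAZ, against 6264 and 9725 in pLKO. EPCAM, an epithelial adhesion molecule, had 709 and 1061 counts in shTAZ 1 and 2, against 520 and 661 in pLKO 1 and 2. CDH1, which encodes E-cadherin, had 2296 and 1355 counts in shTAZ 1 and 2, against 820 and 1329 in pLKO 1 and 2. For EPCAM and CDH1 each shTAZ library lay above each control, though for CDH1 by little. The 5 endothelial markers summed to 4.17 to 8.86 counts in shTAZ and 9.28 to 23.0 in pLKO, and 4 leukocyte markers with a row to 17.7 to 31.9 in shTAZ and 38.0 to 50.1 in pLKO. ERG is itself a marker of endothelium, and the part of such RNA in its few reads was not tested.

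None of the ETS factors changed by the test. Of the 10 named, 8 passed the filter on low values (a normalized count of at least 1 in at least 2 libraries), and 0 of these 8 had a limma adjusted p under 0.05, against 0.0113% of all 17737 genes tested. The count of members was also 0 with edgeR, limma-voom and DESeq2 on the recovered reads, where 0.0564%, 0.0113% and 0.542% of genes were called, and 0 members had an unadjusted limma p under 0.05, against 7.05% of genes. By mean, 3 of the 8 were higher and 5 lower in shTAZ cells, where 49% of genes were higher, with a median log2 fold change of -0.15, against -0.0075 over all genes tested. Both shTAZ libraries lay above both pLKO libraries for 1 member, ETV5, against 18.4% of genes tested, and below both for 1 member, ERG, against 19% of genes. For ERG that order rested on the scaling for depth, since shTAZ 1 and pLKO 2 held 2 reads each. A fold change here is on the scale of log2(normalized count + 1), which understates changes of low genes. Reads come from whole cultures, so fewer cells with an RNA and less of that RNA per cell cannot be told apart.

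The levels placed the factors in 2 clear ranges. Per kilobase (kb) of the longest coding transcript, ETS2 averaged 511 ± 8.31 normalized counts in shTAZ cells and 566 ± 102 in pLKO cells (SD, n = 2 each), the highest mean over the 4 libraries of 26 ETS factors with a row. ETS1 came next with 483 ± 59.5 per kb in shTAZ and 463 ± 245 in pLKO, then ELK3 with 331 ± 29.9 in shTAZ and 329 ± 145 in pLKO (SD, n = 2 each). Over the 4 libraries the range of ETS1 overlapped with that of ETS2 above it and of ELK3 below it, and the range of ELK3 with that of ETV5, so neighbours in this order did not differ beyond their spread. ETS2, with at least 494 per kb, and ELK3, with at most 432, did not overlap. ETV5 had 266 ± 39.6 per kb in shTAZ and 213 ± 2.60 in pLKO, and ELF3 had 78.6 ± 34.4 in shTAZ and 172 ± 134 in pLKO (SD, n = 2 each). ETV4 stood at 99.0 ± 7.48 per kb in shTAZ and 111 ± 18.1 in pLKO, near GABPA with 94.4 ± 28.4 in shTAZ and 108 ± 21.9 in pLKO (SD, n = 2 each). Those 2 overlapped with each other and with ELF3, whose own range also reached into that of ETV5. ERG and ETV1 lay far under these, with at most 0.737 and 0.155 normalized counts per kb in any library.

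**Figure D1:**
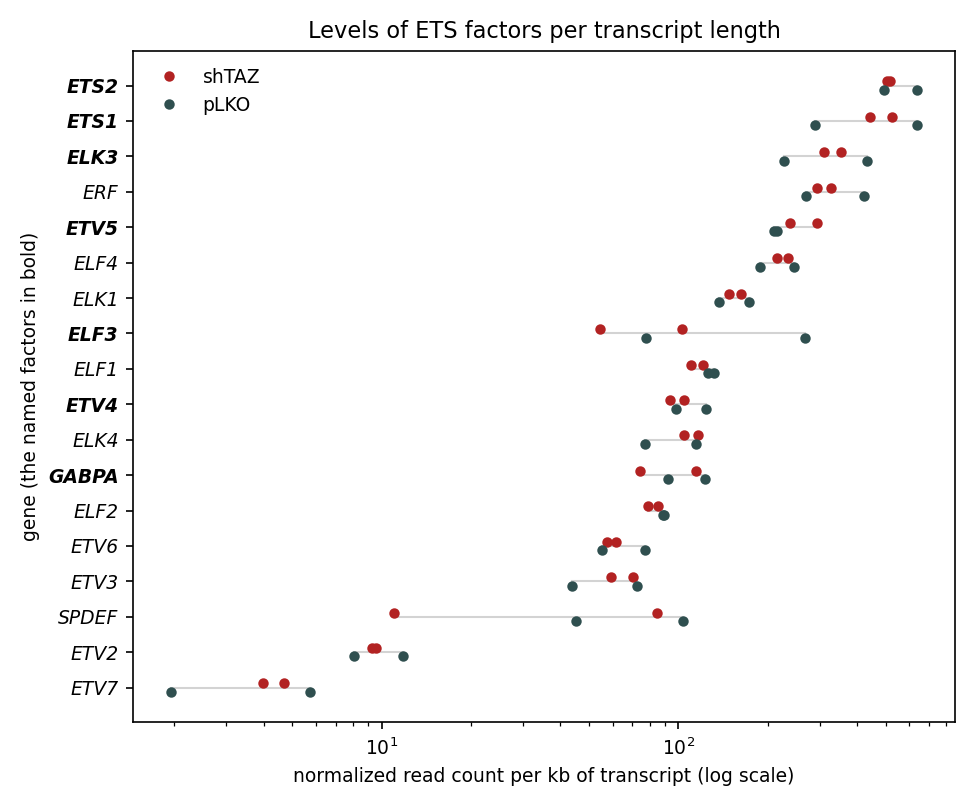
Normalized read counts per kb of transcript, on a log scale, for the 18 ETS factors with a mean of at least 1 per kb over the 4 libraries; each row holds 2 shTAZ and 2 pLKO points, and the grey line joins the lowest and highest library. ETS2, ETS1 and ELK3 lie highest, and the widest row of a named factor is that of ELF3, between 54.3 and 267 per kb.

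ELF3, an epithelial ETS factor, had the smallest unadjusted limma p of the named factors. Its normalized count was 514 and 271 in shTAZ 1 and 2, against 1332 and 388 in pLKO 1 and 2. The groups overlapped, since pLKO 2 lay below shTAZ 1 and pLKO 1 stood apart at 3.44 times pLKO 2. The means were 392 ± 172 in shTAZ and 860 ± 668 in pLKO (SD, n = 2 each), a log2 fold change of -0.94 ± 0.46 (SE) with a 95% interval of -1.97 to 0.08 and a limma adjusted p of 0.714. Without pLKO 1 the log2 fold change was -0.055, and without pLKO 2 it was -1.83, so the size rested on which control was used. It was -0.48 without shTAZ 2.

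The controls differed more for ELF3 than for nearly all genes. On the log2 scale pLKO 2 was lower than pLKO 1 by 1.78, and 6 of 10236 genes tested with a mean count of at least 100 differed by as much between the pLKO libraries (0.0586%, ELF3 included). The shTAZ libraries differed in the same sense, with shTAZ 2 lower than shTAZ 1 by 0.92, a gap reached by 1.72% of those genes. The 3 genes whose centred log2 values over the 4 libraries lay nearest to those of ELF3 were MX1, an interferon-induced antiviral GTPase, at a Euclidean distance of 0.40, DHRS3, a retinaldehyde reductase, at 0.52 and PTGES, a prostaglandin E synthase, at 0.54. MX1 had 373 and 266 normalized counts in shTAZ 1 and 2, against 945 and 350 in pLKO 1 and 2. With 4 libraries this likeness is a description.

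ETS1 and ELK3, both known from vascular and invasive cells, moved opposite to ELF3 between the controls. ETS1 had 2264 and 2696 normalized counts in shTAZ 1 and 2, against 1488 and 3267 in pLKO 1 and 2. Both shTAZ values lay between the pLKO values. For ETS1 that gave a log2 fold change of 0.16 ± 0.29 (SE), with a 95% interval of -0.48 to 0.81 and a limma adjusted p of 0.937. ELK3, a ternary complex factor that partners with SRF, had 1304 and 1482 counts in shTAZ 1 and 2, against 953 and 1817 in pLKO 1 and 2, and again the shTAZ values lay between the controls. Its log2 fold change was 0.08 ± 0.26 (SE), with a 95% interval of -0.49 to 0.65 and a limma adjusted p of 0.972. The gap between the controls was 1.13 on the log2 scale for ETS1 and 0.93 for ELK3, both with pLKO 2 higher, and 0.909% and 1.95% of genes with a mean of at least 100 differed as much. Without pLKO 1 the log2 fold changes turned to -0.40 for ETS1 and -0.39 for ELK3, and without pLKO 2 they were 0.73 and 0.54. That of ELK3 was -0.013 without shTAZ 2, and without shTAZ 1 those of ETS1 and ELK3 were 0.29 and 0.17.

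ETV5 was the only member with both shTAZ libraries above both pLKO libraries, an order that 18.4% of all genes tested also had. It belongs with ETV1 and ETV4 to the PEA3 group, whose genes are held down by the repressor CIC and induced by ERK signalling, and whose proteins are targets of the ubiquitin ligase subunit COP1. ETV5 had 978 and 1208 normalized counts in shTAZ 1 and 2, against 881 and 866 in pLKO 1 and 2. The lower shTAZ library exceeded the higher control by little, and the controls were close together. The means were 1093 ± 163 in shTAZ and 874 ± 10.7 in pLKO (SD, n = 2 each), with a log2 fold change of 0.31 ± 0.17 (SE), a 95% interval of -0.067 to 0.70 and a limma adjusted p of 0.737. The fold change was 0.16 without shTAZ 2 and 0.47 without shTAZ 1. In the authors' deposited table ETV5 had a log2 fold change of 0.26 and an adjusted p of 0.939.

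ETV4 did not separate. It had 228 and 253 normalized counts in shTAZ 1 and 2, against 301 and 239 in pLKO 1 and 2, so shTAZ 2 lay above pLKO 2 and below pLKO 1. Its log2 fold change came to -0.16 ± 0.22 (SE), with a 95% interval of -0.64 to 0.32 and a limma adjusted p of 0.909, and it was 0.0050 without pLKO 1. The treatment of reads that match more than 1 gene is not stated, so values of these similar genes may hold reads of one another.

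ETV1 and ERG were close to undetected. ETV1 had 1 read in shTAZ 1 and 1 in shTAZ 2, against 0 in each pLKO library, which is at or under the limit of 3 reads that a count of 0 allows, and it did not pass the filter. ERG had 2 and 0 reads in shTAZ 1 and 2, against 4 and 2 in pLKO 1 and 2. Summed by group and scaled for depth, ERG in shTAZ was 0.311 times its level in pLKO, with an exact 95% counting interval of 0.0307 to 1.74. That interval covers counting error only, and the limma adjusted p was 0.774. No difference was detected for either gene, and at this depth a fall or a small rise could not have been.

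ETS2 and GABPA, broadly expressed factors, did not pass the test. ETS2 had 2035 and 1989 normalized counts in shTAZ 1 and 2, against 1944 and 2514 in pLKO 1 and 2, so the shTAZ values lay close to each other and within the span of the controls. Its log2 fold change was -0.14 ± 0.17 (SE), with a 95% interval of -0.52 to 0.25 and a limma adjusted p of 0.9004, and it was 0.049 without pLKO 2. GABPA, which drives many mitochondrial genes together with a GABPB partner, had 586 and 380 counts in shTAZ 1 and 2, against 473 and 631 in pLKO 1 and 2. The shTAZ libraries differed by 0.62 on the log2 scale, a gap reached by 5.47% of genes with a mean of at least 100. The log2 fold change of GABPA was -0.21 ± 0.24 (SE), with a 95% interval of -0.73 to 0.31 and a limma adjusted p of 0.889, and it was 0.10 without shTAZ 2.

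**Figure D2:**
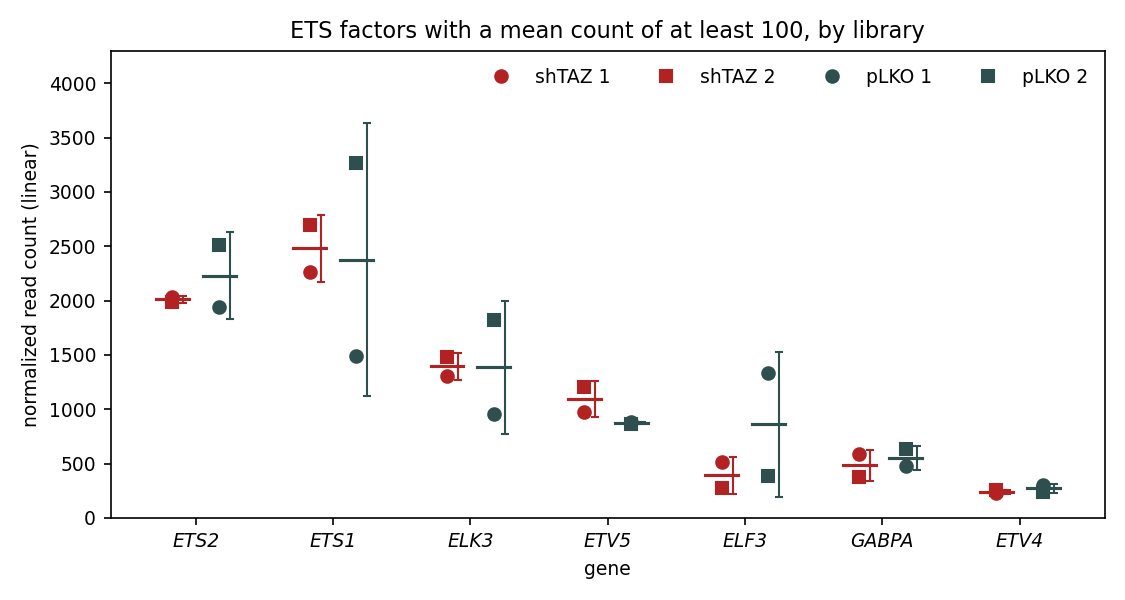
Normalized read count (linear axis) of the 7 named ETS factors with a mean count of at least 100, with shTAZ in red and pLKO in dark grey; circles are library 1, squares library 2, horizontal lines the means and vertical bars 1 SD (n = 2). The pLKO points of ETS1, ELK3 and ELF3 lie far apart. Only ETV5 has both shTAZ points above both pLKO points, an order that 18.4% of all genes tested also had.

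The controls lay far apart for part of the family. Among the 7 members averaging at least 100 counts, the median gap between libraries of a group was 0.25 for shTAZ and 0.42 for pLKO on the log2 scale, against 0.17 for shTAZ and 0.22 for pLKO over the 10236 genes with such a mean. A gap of at least 0.9 between the pLKO libraries was found for ELF3, ETS1 and ELK3, or 42.9% of the 7, against 2.23% of genes. Between the shTAZ libraries ELF3 had such a gap, or 14.3% of the 7, against 1.89% of genes. The limit of 0.9 was set after these gaps were seen, so the shares describe the members and test nothing. The upper 95% limits on the fold of shTAZ over pLKO were 1.19 for ETS2, 1.24 for GABPA, 1.25 for ETV4, 1.62 for ETV5, 1.56 for ELK3 and 1.75 for ETS1, and the lower limits of these 6 ran between 0.602 for GABPA and 0.954 for ETV5. For ELF3 the limits were 0.256 and 1.06.

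Promoter sequence from RefSeq (build GRCh38.p14) was available for 6 of the members and for WWTR1. The 250 bases before the start are shown for ELF3, the member with the smallest p, for GABPA, a member with a longer ETS core before its start, and for WWTR1, the gene that was knocked down and that ETS factors are described to activate. WWTR1 has 2 starts in the reference, and the window shown is the one that holds GGAA. They lie at chr1:202010337-202010586 (plus strand), chr21:25734722-25734971 (plus strand) and chr3:149658026-149658275 (minus strand), each written on the strand of its gene, with GGAA or its reverse complement TTCC in capitals.
ELF3: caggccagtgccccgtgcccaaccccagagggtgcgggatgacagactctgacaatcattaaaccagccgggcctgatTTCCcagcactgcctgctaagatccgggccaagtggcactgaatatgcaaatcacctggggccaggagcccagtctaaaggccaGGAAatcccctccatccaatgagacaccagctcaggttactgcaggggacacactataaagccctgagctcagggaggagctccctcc
GABPA: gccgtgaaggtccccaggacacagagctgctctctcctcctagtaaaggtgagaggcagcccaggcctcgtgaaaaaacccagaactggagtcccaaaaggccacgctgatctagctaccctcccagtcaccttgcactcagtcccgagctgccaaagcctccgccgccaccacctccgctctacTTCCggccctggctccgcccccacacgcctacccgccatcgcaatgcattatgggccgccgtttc
WWTR1: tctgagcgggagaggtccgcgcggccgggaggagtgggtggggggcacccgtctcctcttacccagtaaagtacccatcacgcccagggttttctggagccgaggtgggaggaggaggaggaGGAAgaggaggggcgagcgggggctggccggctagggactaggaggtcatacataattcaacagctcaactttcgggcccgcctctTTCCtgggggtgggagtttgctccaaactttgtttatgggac
The letters GGAA occur 2 times in the window of ELF3, 1 time in that of GABPA and 2 times in that of WWTR1, on either strand. In GABPA they stand within CCGGAA, read on the opposite strand. GGAA is common: 92.7% of 35116 promoter windows of this length hold it, whereas 14.5% hold CCGGAA and 11.9% hold GGAATG, the letters of a TEAD motif, which itself holds GGAA. Of the 6 members with windows, 6 held GGAA in at least 1 window, 2 (ETV1 and GABPA) held CCGGAA and 1 (ERG) held GGAATG. Those counts are by gene, and some genes have several windows. Counted by window, as the shares above are, 16 of 16 held GGAA, 4 held CCGGAA and 2 held GGAATG. Some windows of ETV1 and of ERG overlap, and the same CCGGAA of ETV1 was counted in overlapping windows. None of the 3 windows printed holds GGAATG. Such matches describe letters in a window and say nothing of binding.

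The other 18 ETS factors of the human genome did not change by the test either. A row was found for 17 and 13 passed the filter, of which 0 passed limma at an adjusted p under 0.05 (0 with an unadjusted p under 0.05, and 0 by edgeR or DESeq2), with 6 higher and 7 lower in the mean and a median log2 fold change of -0.046. ELF1 had 394 and 430 normalized counts in shTAZ 1 and 2, against 449 and 470 in pLKO 1 and 2, and ELF2 342 and 316 in shTAZ, against 355 and 358 in pLKO. Those were the 2 whose groups did not overlap, or 15.4% of 13, against 37.4% of all genes tested. SPDEF, a prostate epithelial ETS factor, had the most uneven libraries, with 160 and 20.8 counts in shTAZ 1 and 2, against 85.3 and 197 in pLKO 1 and 2 (log2 fold change -1.14 ± 0.72 SE, limma adjusted p = 0.774). ERF, a repressor of the family, had 792 and 885 in shTAZ, against 1143 and 723 in pLKO. EHF, a close relative of ELF3, had 0 and 5.21 counts in shTAZ 1 and 2, against 1.86 and 2.30 in pLKO 1 and 2.

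**Figure D3:**
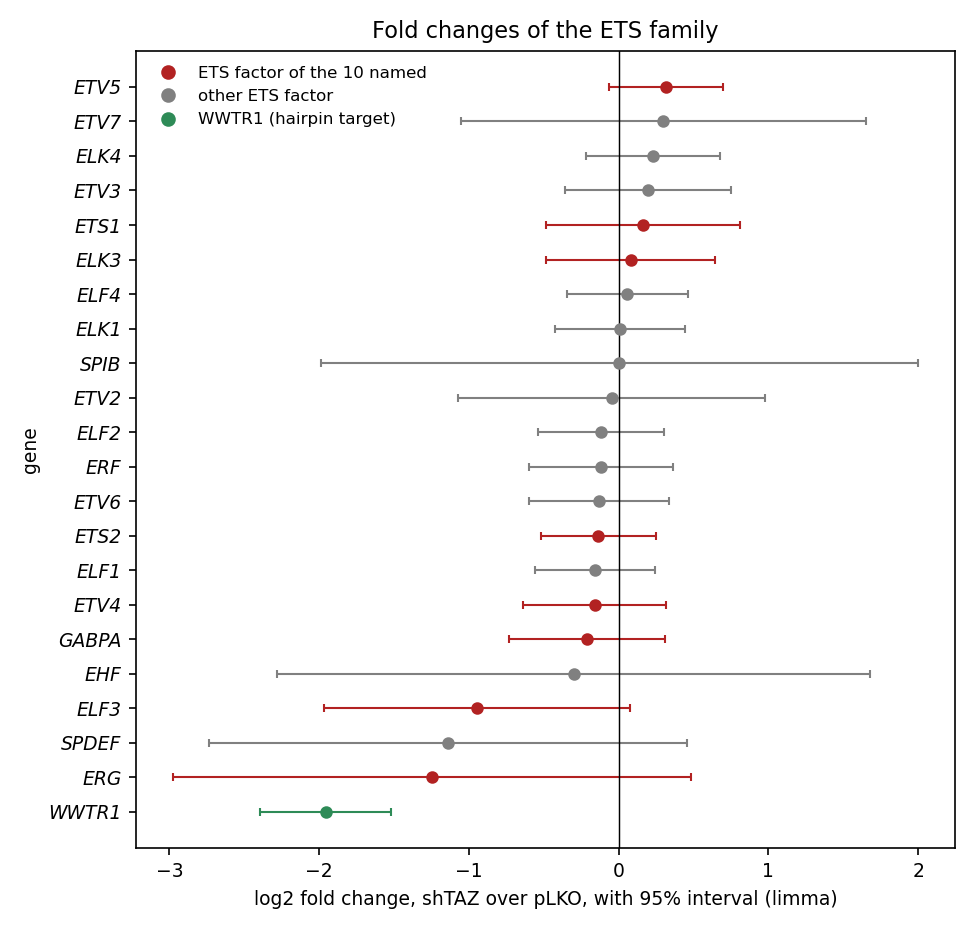
Log2 fold change of shTAZ over pLKO with its 95% interval (limma) for the 21 ETS factors that passed the filter and for WWTR1, the hairpin target. The interval of each ETS factor crosses 0, that of WWTR1 lies between -2.39 and -1.52, and the wide intervals of ERG, EHF and SPIB belong to genes with few reads.

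Partners and regulators of ETS factors did not pass the test. Of 19 such genes, 0 passed limma at an adjusted p under 0.05, and 0 passed by edgeR or DESeq2. An unadjusted limma p under 0.05 was found for 2, against 7.05% of all genes tested. By mean 12 were higher and 7 lower, and the median of their log2 fold changes was 0.087. SRF, the factor that ELK3 joins on DNA, had 1402 and 1512 normalized counts in shTAZ 1 and 2, against 1035 and 1192 in pLKO 1 and 2 (log2 fold change 0.39 ± 0.16 SE, limma adjusted p = 0.690). CIC, the repressor of ETV1, ETV4 and ETV5, had 1931 and 1977 in shTAZ, against 1895 and 1643 in pLKO, and its cofactor ATXN1 had 235 and 334 in shTAZ, against 218 and 133 in pLKO (limma adjusted p = 0.884 and 0.685). MAP2K2, a kinase upstream of ERK, had 2121 and 2081 in shTAZ, against 2454 and 2577 in pLKO (limma adjusted p = 0.762). The ligase subunit COP1, listed under its older symbol RFWD2, had 582 and 686 in shTAZ, against 610 and 625 in pLKO.

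Genes described as induced by ERK or repressed by CIC were set beside ETV4 and ETV5. Control by ERK or CIC was not tested for any of them. Of 16 genes, 0 passed limma at an adjusted p under 0.05, and 0 passed by edgeR or DESeq2. For 3 the unadjusted limma p was under 0.05, where 7.05% of all genes tested had one. In the mean 10 were higher and 6 lower, with a median log2 fold change of 0.069. DUSP4, a phosphatase of MAP kinases, had 538 and 1154 normalized counts in shTAZ 1 and 2, against 235 and 514 in pLKO 1 and 2 (log2 fold change 1.18 ± 0.38 SE, limma adjusted p = 0.598). SPRY1, an inhibitor of receptor tyrosine kinase signalling, had 36.3 and 47.9 in shTAZ, against 77.0 and 72.5 in pLKO (log2 fold change -0.82 ± 0.32 SE, limma adjusted p = 0.685). Between libraries of a group the list stood apart for the controls. pLKO 2 exceeded pLKO 1 for 15 of the 16, against 55.8% of genes with a mean of at least 100. The excess was at least 0.9 on the log2 scale for 8, against 1.21% of those genes. No minimum mean was applied to the 16, and not all of them averaged at least 100. That limit of 0.9 was set after values were seen. The median difference of pLKO 2 minus pLKO 1 was 0.86. In shTAZ cells library 2 exceeded library 1 for 8 of the 16, with a median difference of -0.019. DUSP6, the phosphatase of ERK, had 526 and 1113 in shTAZ 1 and 2, against 224 and 568 in pLKO 1 and 2.

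Between the controls ETS1 and ELK3 differed in the same direction as most of these genes, as did GABPA and ETS2 by less, and ETV4 and ETV5 did not. The difference of pLKO 2 minus pLKO 1 was 1.13 for ETS1, 0.93 for ELK3, 0.42 for GABPA and 0.37 for ETS2, against -0.33 for ETV4 and -0.025 for ETV5 on the log2 scale. Of genes with a mean of at least 100, 55.8% were higher in pLKO 2 than in pLKO 1. Gaps as large as those of GABPA and ETS2, in either direction, were found for 21.6% and 26.1% of those genes. JUN, which binds DNA beside ETS factors at joint sites, was named after its values were seen. It had 2783 and 3394 normalized counts in shTAZ 1 and 2, against 1646 and 3652 in pLKO 1 and 2. The part of this difference between controls in the fold changes of ETS1 and ELK3 was not tested, and with 1 library on each side it has no replicate.

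**Figure D4:**
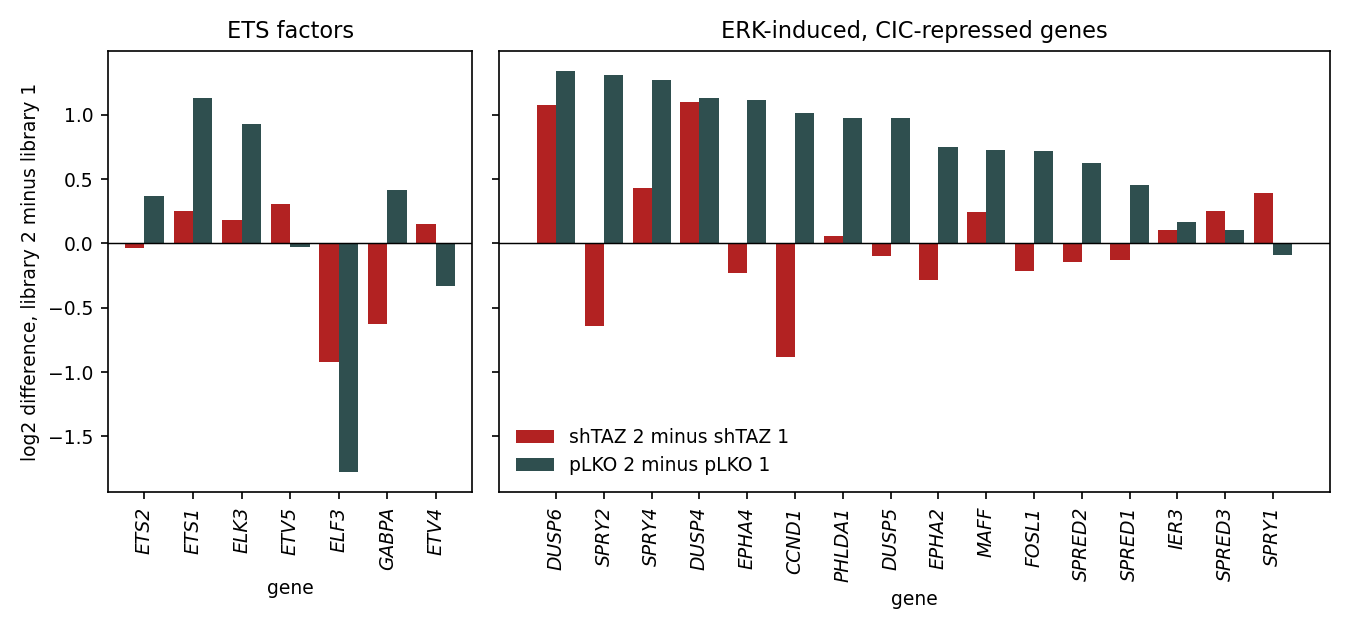
Log2 difference of library 2 minus library 1 within the shTAZ group (red) and within the pLKO group (dark grey). At left are the 7 ETS factors with a mean count of at least 100. At right are 16 genes described as induced by ERK or repressed by CIC. The pLKO bar is positive for 15 of the 16 genes at right and for ETS1, ELK3, GABPA and ETS2 at left, near 0 for ETV5, at -0.33 for ETV4 and at -1.78 for ELF3.

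Genes described as targets of ETV1, ETV4, ETV5, ERG or ETS1 had no common direction. Of 25, 22 had a row and were tested, and 0 passed limma at an adjusted p under 0.05, nor edgeR or DESeq2. Before adjustment 2 had a limma p under 0.05, against 7.05% of all genes tested. Among the 22, 12 were higher and 10 lower, and the median log2 fold change was 0.043. PLAU, the protease urokinase, had 6246 and 7817 normalized counts in shTAZ 1 and 2, against 4839 and 5420 in pLKO 1 and 2 (log2 fold change 0.45 ± 0.18 SE, limma adjusted p = 0.687). ITGB3, an integrin subunit, had 398 and 503 in shTAZ, against 314 and 345 in pLKO (limma adjusted p = 0.707). MMP9, a gelatinase, had 14.2 and 9.38 in shTAZ, against 20.4 and 17.3 in pLKO, and CXCR4, a chemokine receptor, 30.1 and 41.7 in shTAZ, against 46.4 and 47.2 in pLKO (limma adjusted p = 0.795 and 0.854). MMP1, a collagenase, had 167 and 356 in shTAZ 1 and 2, against 90.9 and 282 in pLKO 1 and 2, so its libraries overlapped.

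Epithelial genes described as targets of ELF3, EHF or SPDEF were split. Of 17, 15 had a row and 14 were tested, 0 passed limma at an adjusted p under 0.05 (4 with an unadjusted p under 0.05, where 7.05% of all genes had one, and 0 by edgeR), 8 were higher and 6 lower, and the median log2 fold change was 0.13. DESeq2 called 1 of them, against 0.542% of genes, the protease gene ST14, which rose in the authors' deposited table (adjusted p = 7.1e-04) and had 422 and 522 normalized counts in shTAZ 1 and 2, against 181 and 206 in pLKO 1 and 2 (limma adjusted p = 0.152). CLDN7, a tight junction protein, had 370 and 505 in shTAZ, against 235 and 232 in pLKO (limma adjusted p = 0.399), and KRT8, a keratin of simple epithelia, 14618 and 8485 in shTAZ, against 18494 and 24944 in pLKO (limma adjusted p = 0.518). CDH1, which encodes E-cadherin, had 2296 and 1355 in shTAZ, against 820 and 1329 in pLKO (limma adjusted p = 0.650). Groups did not overlap for 6 of the 14, or 42.9%, against 37.4% of genes tested, and ELF3 itself overlapped.

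Genes described as GABPA targets were mostly lower in the mean without passing the test. Of 13, 0 passed limma at an adjusted p under 0.05, and 0 passed by edgeR or DESeq2. Only 1 had an unadjusted limma p under 0.05, where 7.05% of all genes tested had one. In the mean 3 were higher and 10 lower, and the median log2 fold change was -0.16, against -0.0075 over all genes tested. Both shTAZ libraries lay below both controls for 6 of the 13, against 19% of genes tested, and above both for 1, against 18.4%. TERT, the catalytic subunit of telomerase, had 124 and 80.3 normalized counts in shTAZ 1 and 2, against 154 and 191 in pLKO 1 and 2 (log2 fold change -0.78 ± 0.28 SE, limma adjusted p = 0.654). ATP5B, a subunit of ATP synthase, had 12133 and 10458 in shTAZ, against 13968 and 14564 in pLKO, and COX5B, a subunit of cytochrome c oxidase, 697 and 715 in shTAZ, against 862 and 860 in pLKO (limma adjusted p = 0.730 and 0.743). COX5A, of the same enzyme, had 884 and 961 in shTAZ, against 1135 and 1064 in pLKO. GABPA itself overlapped, with shTAZ 1 between the controls and shTAZ 2 below both. Whether GABPA acts on TERT or on the other listed genes in DU145 was not tested.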

How the data were processed

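RNA-seq of 4 DU145 libraries (0.2 µg of RNA each, poly-T capture, per the labels' protocols) was analysed. The deposited signal is a normalized read count per gene symbol. Per the file headers, the authors also gave a log2 fold change, its standard error and a Wald statistic (scores), and p-values, raw and adjusted. The submitters' processing notes name STAR, DESeq2 and hg19. For the read counter, strand setting and annotation nothing is stated. In each library 100% of values were whole multiples (within 0.001 reads) of the smallest above 0, so reads were recovered. Of 19897 rows, 26 with symbols turned into dates (0.153 to 0.191% of reads) were left out.

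limma 3.58.1 (R 4.3.3, eBayes with trend) was run on log2(value + 1) over all 17737 genes with a value of at least 1 in at least 2 libraries, with Benjamini-Hochberg adjustment and a threshold of 0.05. edgeR 4.0.16, limma-voom and DESeq2 1.42.0 were run on recovered reads. Other alternatives were TMM scaling, pseudocounts of 0.5 and 5, other filters, a replicate block, and the omission of single libraries. The analysis was tested on simulated data. Lengths came from GENCODE 29 and were found for 26 of 26 ETS factors; promoters were from RefSeq. Protein sequences were not used here.

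The members, gene lists and tests were chosen with earlier results of these data known. Beyond the named members and WWTR1, genes were named where they passed the threshold or were among up to 4 per list with a mean of at least 10, groups that did not overlap and the largest fold changes; other ETS factors could be named freely. RFWD2, DUSP6, JUN and MMP1 were named, and the limit of 0.9 on gaps between libraries was set, after their values were seen.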

Additional observations from a re-analysis of the deposited data

How the results depend on the processing

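No ETS member was called under any alternative run. The count of genes called over the whole table, 2 with limma, was 10 with edgeR, 68 with DESeq2 (also 68 with its fold change prior, an alternative chosen after seeing the data) and 7 with a replicate block, and 0 to 0 when any 1 library was left out. Same-numbered libraries did not deviate together over all genes (correlation -0.039 across 17737 genes). That check cannot settle whether the numbers pair the libraries, because the shTAZ deviations also hold any difference between hairpins. The replicate block changed no call of a member. It gave ELF3 a limma adjusted p of 0.215, within a range of 0.215 to 0.9995 over 10 alternatives, and 0.467 to 0.9999 with 1 library left out.

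The median log2 fold change of the members tested, -0.15, ran between -0.16 and -0.086 over the alternatives that kept all libraries, and between -0.35 and 0.023 with 1 left out. No member changed sign with all libraries kept. With 1 left out the log2 fold change ranged between -0.40 and 0.73 for ETS1, -0.39 and 0.54 for ELK3, -0.52 and 0.10 for GABPA, -0.32 and 0.049 for ETS2 and -0.33 and 0.0050 for ETV4, each turning sign, and the lone library of a group was assumed to vary like the others. The ELF3 fold change of -0.94 was -0.20 with the DESeq2 prior and -1.13 without it. That of WWTR1 stayed between -2.22 and -1.69 with 1 library left out, where its limma adjusted p was 0.308 to 0.9999. Searching only the bases before the start left CCGGAA in the promoters of 2 members. With 2 libraries a group, and fewer than 10 reads in all for ERG and ETV1, small changes could not be detected. Large changes could be missed as well. ST14, with a limma fold of 2.42 and groups that did not overlap, had a limma adjusted p of 0.152.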

Other observations

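Genes known as 5′ partners of ETS fusions in prostate cancer were measured beside the factors. Of 6, 5 had a row and were tested, and 0 passed limma at an adjusted p under 0.05, nor edgeR or DESeq2. Among these 5, 1 had an unadjusted limma p under 0.05, against 7.05% of all genes tested. In the mean 1 was higher and 4 lower. NDRG1, a stress-responsive gene, had 1149 and 2276 normalized counts in shTAZ 1 and 2, against 3053 and 2853 in pLKO 1 and 2 (log2 fold change -0.87 ± 0.26 SE, limma adjusted p = 0.567). TMPRSS2, the androgen-driven protease gene most often joined to ERG, had 0 and 3 reads in shTAZ 1 and 2, against 0 and 2 in pLKO 1 and 2. SLC45A3, another androgen-driven partner, had 77.0 and 101 normalized counts in shTAZ 1 and 2, against 91.8 and 92.0 in pLKO 1 and 2. CANT1 had 1264 and 1454 in shTAZ, against 1478 and 1460 in pLKO.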
